A study of Mus musculus with 18 samples.

Results

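The 7 genes described here, of 49184 genes in the tables, encode the enzymes and helper proteins that trim fibrillar procollagens outside the cell: the procollagen N-proteinases Adamts2, Adamts3 and Adamts14, the procollagen C-proteinases Bmp1 and Tll1, and the C-proteinase enhancers Pcolce and Pcolce2. They were chosen by name. Expression was measured by total RNA sequencing of cartilage of the femoral condyle from male C57Bl/6J mice aged 12 weeks, in which the anterior cruciate ligament (ACL) of the right knee was ruptured by 1 load of 12 N. There were 6 libraries from naïve mice, which carried the day 7 label and were not loaded. A further 3 libraries each came from injured knees and from contralateral left knees, taken 1 day or 7 days after rupture. No genotype other than wild type was used. Each library was a pool of knees from several mice. The series text gives 4 mice for every library, whereas the study's own scheme gives 2 at day 1 and 4 at day 7, with 2 knees in each naïve library and the left and right knees of the same naïve mice pooled apart. The labels do not say which libraries share mice, so all libraries were treated as independent, and FDRs measure the spread between libraries. By the study's scheme, some of the 6 naïve libraries came from the same mice. FDRs against naïve knees may therefore be too small. Library totals ranged from 16074762 to 41794005 estimated counts, with a median of 25465706.

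Fibrillar collagens are made as procollagens with a propeptide at either end, which keeps them soluble until they leave the cell. Members of the Adamts family remove the N-terminal propeptide, and tolloid proteinases remove the C-terminal one, the step that lets collagen molecules assemble into fibrils. The enhancers are not proteinases themselves. They bind the C-terminal propeptide region and speed its removal by tolloid proteinases. Tolloid proteinases also cut other matrix and signalling proteins, among them lysyl oxidase, biglycan and the BMP antagonist chordin. In articular cartilage the main fibrillar collagen is type II, whereas types I, III and V are those of fibrous connective tissue.

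The tissue label was checked against marker genes. Cartilage genes were abundant in every library: the summed level of 11 chondrocyte markers, of which Col2a1 was the most abundant, ranged from 3693 to 7067 CPM (counts scaled to a common library total, with TMM factors) in the naïve libraries and from 6356 to 7214 CPM in the day 7 injured libraries. Markers of other tissues were present too, and the erythroid and neutrophil sums were above the chondrocyte sum in every naïve library. In the naïve libraries 6 erythroid genes summed to 34245 ± 3939 CPM (mean ± SD, n = 6), 7 neutrophil genes to 11637 ± 1861 CPM and 6 skeletal muscle genes to 5632 ± 2233 CPM, and no marker of the 8 lists was at 3 counts or fewer in every library. The 11 genes of fibroblasts of synovium, tendon or capsule summed to 15332 ± 3176 CPM in the naïve libraries and 75642 ± 5581 CPM in the 3 day 7 injured libraries. Most of both sums came from Col1a1 (means of 12425 and 50924 CPM) and Col3a1 (1825 and 22659 CPM), which are also fibrillar procollagen genes. Replicate 1 of the day 7 contralateral group stood apart from all other libraries in the share of its counts that its 10 most abundant genes took, 42.5% against 16.6% to 29.8% elsewhere, and in its chondrocyte sum of 12876 CPM. Its erythroid sum of 64299 CPM was also the highest, against 16534 to 41052 CPM elsewhere. It had the largest share of counts not matched to a gene (3.90%), the fewest genes above 0 (24213) and the lowest TMM factor (0.696). Its fibroblast sum of 56753 CPM was above those of the naïve libraries and below the 70662 to 81674 CPM of the day 7 injured ones, and 52441 CPM of it were Col1a1. Fold changes of the 7 genes that rest on this library are given below with and without it where they moved.

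Per unit of length, the helper Pcolce was the most abundant of the 7 transcripts in every group and the tolloid proteinase Tll1 the least. In the naïve libraries the mean level was 30.5 ± 5.42 TPM (counts per transcript length, scaled to a common total; SD, n = 6) for Pcolce, 10.6 ± 1.63 TPM for Bmp1, 8.29 ± 1.00 TPM for Adamts2 and 7.17 ± 1.68 TPM for Pcolce2. Much lower were Adamts3 at 1.11 ± 0.401 TPM, Adamts14 at 0.640 ± 0.132 TPM and Tll1 at 0.351 ± 0.148 TPM. The ranges of the naïve libraries overlapped between Bmp1 and Adamts2, between Adamts2 and Pcolce2, between Adamts3 and Adamts14 and between Adamts14 and Tll1, so the order of these neighbours is not set beyond their spread. The gaps between Pcolce and Bmp1 and between Pcolce2 and Adamts3 held in all 6 libraries. The same order was found in the other groups, with the exception of the day 7 contralateral group, where Adamts14 and Adamts3 had means of 0.782 and 0.779 TPM. TPM was used to compare genes within a library, and across groups only for Pcolce and Adamts2 at day 1, beside the shift of all genes. All other comparisons of 1 gene across groups used CPM, because TPM is not scaled for library composition. The median of all tested genes in day 7 injured against naïve knees was −0.38 (log2) in TPM and −0.06 in CPM.

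Thus, within each role 1 gene supplied most of the transcripts. Adamts2 made up 82.8 ± 3.38% of the summed TPM of the N-proteinases in naïve cartilage and 81.9 ± 0.760% in the day 7 injured knees. Bmp1 made up 96.9 ± 0.983% of the C-proteinase transcripts in naïve and 97.8 ± 0.331% in day 7 injured libraries. Pcolce made up 81.0 ± 3.35% of the enhancer transcripts in naïve libraries and 93.2 ± 1.15% in day 7 injured libraries.

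At day 7 after ACL rupture, 6 of the 7 genes were higher in the injured knees than in naïve knees, and the exception was the enhancer Pcolce2. The largest difference was that of Pcolce, at 4.11-fold, followed by Bmp1 (2.99-fold), Adamts3 (2.78-fold), Adamts14 (2.76-fold), Adamts2 (2.51-fold) and Tll1 (2.12-fold). No member was lower. A gene was called when edgeR's quasi-likelihood test gave a false discovery rate (FDR) no higher than 0.05 and the fold change reached 1.5. This test called 10.4% of the 21129 genes tested higher and 6.11% lower in this comparison. All 7 members passed the filter on low counts. The same 6 genes were called higher when the day 7 injured knees were compared with the contralateral knees of day 7, where 9.33% of 21262 genes were called higher and 3.23% lower, and when they were compared with the injured knees of day 1, where 9.04% were called higher and 6.38% lower. These comparisons share the day 7 injured libraries and are not independent. Without replicate 1 of the day 7 contralateral group, the 6 genes were still called higher than in the contralateral knees, with a log2 fold change of 1.32 for Adamts2, 1.79 for Adamts3, 1.11 for Adamts14, 1.31 for Bmp1, 1.76 for Tll1 and 1.93 for Pcolce. In bulk tissue a change in RNA per cell and a change in the share of cells that express a gene cannot be told apart. The plot of CPM by group shows every library.

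**Figure D1:**
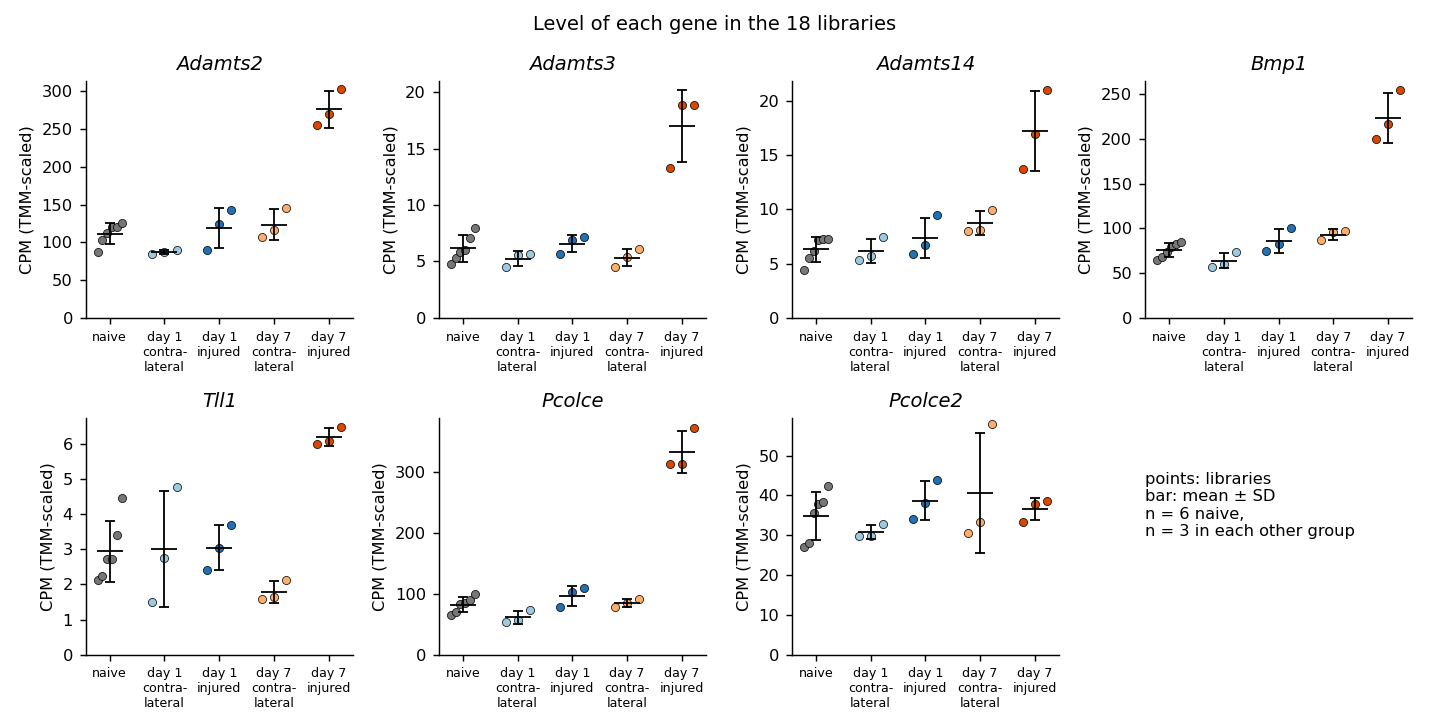
Level of each of the 7 genes in CPM (TMM-scaled, linear axis from 0) in the 5 groups; points are libraries, sorted by value within a group, and bars the mean ± SD (n = 6 naïve, n = 3 in each other group). The 3 day 7 injured libraries lie above all others for 6 genes, whereas those of Pcolce2, at 33.3 to 38.7 CPM, lie within the naïve range of 27.1 to 42.4 CPM.

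Adamts2, the main N-proteinase of procollagen type I, lay between 87.5 and 125.5 CPM in the 6 naïve libraries, with a median of 116 CPM. It was at 89.9, 84.4 and 87.6 CPM in the day 1 contralateral libraries and at 124, 90.4 and 143 CPM in the day 1 injured ones. At day 7 the contralateral libraries had 146, 107 and 117 CPM and the injured ones 256, 269 and 303 CPM. All 3 day 7 injured libraries were above the other 15. The log2 fold change (log2FC) against naïve was 1.33 (SE 0.123, FDR 1.32e-06), against day 7 contralateral 1.16 (SE 0.160, FDR 5.65e-05) and against day 1 injured 1.23 (SE 0.149, FDR 3.89e-05).

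Adamts3, which also acts on procollagen type II and on the precursor of the lymphatic growth factor VEGF-C, was measured on fewer reads, from 78 to 408 estimated counts per library. Naïve libraries ranged from 4.79 to 7.98 CPM with a median of 5.90 CPM. The day 1 libraries lay at 4.51, 5.70 and 5.56 CPM for contralateral and at 5.69, 6.90 and 7.13 CPM for injured knees. At day 7 the contralateral libraries had 6.08, 4.55 and 5.37 CPM and the injured ones 13.3, 18.8 and 18.9 CPM. The injured knees of day 7 did not overlap with any other group. Their log2FC was 1.48 against naïve (SE 0.159, FDR 5.38e-06), 1.68 against day 7 contralateral (SE 0.196, FDR 1.09e-05) and 1.39 against day 1 injured knees (SE 0.191, FDR 0.00012).

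Adamts14, the third N-proteinase, ranged from 4.45 to 7.29 CPM in naïve libraries, with a median of 6.70 CPM. It was at 5.73, 7.43 and 5.33 CPM in contralateral and at 5.91, 6.71 and 9.45 CPM in injured knees of day 1. The day 7 contralateral knees had 9.98, 8.02 and 8.14 CPM, all above the naïve range, and the day 7 injured knees 16.9, 13.7 and 21 CPM. The log2FC of the day 7 injured knees was 1.47 against naïve (SE 0.183, FDR 2.38e-05). It was 0.99 against the contralateral knees (SE 0.217, FDR 0.0036). The contralateral knees of day 7 did not pass the test against naïve knees (log2FC 0.46, SE 0.188, unadjusted p = 0.0254, FDR 0.278, edgeR).

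Bmp1, the principal C-proteinase, ranged from 64.7 to 84.6 CPM in naïve libraries, with a median of 76.6 CPM. Day 1 values were 57.2, 60.7 and 73.5 CPM in contralateral and 74.9, 82.1 and 100 CPM in injured knees, and these groups did not overlap. At day 7 the contralateral libraries lay at 96.6, 86.5 and 96.1 CPM and the injured ones at 199.7, 216 and 255 CPM. Injured knees of day 7 had a log2FC of 1.58 against naïve (SE 0.114, FDR 1.12e-07), 1.26 against contralateral (SE 0.136, FDR 4.27e-06) and 1.40 against day 1 injured knees (SE 0.139, FDR 7.15e-06). The contralateral knees of day 7 lay above the naïve range, with a log2FC of 0.30 that did not pass the test (SE 0.115, FDR 0.263).

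Tll1, a second tolloid C-proteinase, was the lowest member, with 21 to 204 estimated counts per library. The naïve range was 2.12 to 4.46 CPM, with a median of 2.73 CPM. It was spread widely in the day 1 contralateral libraries, at 2.76, 1.51 and 4.77 CPM, and lay at 3.04, 3.69 and 2.40 CPM in the injured ones. At day 7 the contralateral knees had 1.64, 2.14 and 1.59 CPM and the injured knees 6.49, 6.08 and 6.01 CPM. Thus the injured libraries of day 7 were close to each other and above all others. The log2FC was 1.08 against naïve (SE 0.284, FDR 0.00998) and 1.79 against contralateral knees of day 7 (SE 0.344, FDR 0.00123). Against day 1 injured knees it was 1.04 (SE 0.337, FDR 0.0359), and this call was lost when any 1 of 5 libraries was left out, namely day 1 injured replicate 1 or 3 or any of the 3 day 7 injured libraries, with FDRs of up to 0.12.

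Pcolce, the first enhancer, ranged from 65.2 to 98.9 CPM in naïve libraries, with a median of 83.9 CPM. The day 1 contralateral libraries had 53.7, 56.8 and 73.8 CPM and the day 1 injured ones 110, 77.9 and 102 CPM. At day 7 the contralateral libraries lay at 78.4, 85.4 and 91.7 CPM and the injured ones at 313, 313 and 373 CPM. No library of another group was above 110 CPM. The log2FC of the day 7 injured knees was 2.04 against naïve (SE 0.138, FDR 6.1e-08), 1.97 against contralateral knees (SE 0.167, FDR 3.95e-07) and 1.81 against day 1 injured knees (SE 0.170, FDR 4.37e-06).

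Pcolce2, the second enhancer, did not follow its paralogue. Naïve libraries ranged from 27.1 to 42.4 CPM, with a median of 36.7 CPM, and the day 7 injured libraries lay at 33.3, 38.7 and 37.8 CPM. The day 1 libraries had 32.8, 29.9 and 29.8 CPM in contralateral and 43.9, 34.0 and 38.2 CPM in injured knees. The day 7 contralateral knees had 57.9, 30.7 and 33.3 CPM, in which the high value was that of replicate 1. The log2FC of day 7 injured knees was 0.09 against naïve (SE 0.129, FDR 0.638) and −0.14 against contralateral knees (SE 0.204, FDR 0.684). The sign of the latter turned when that replicate was left out (log2FC 0.22, FDR 0.424). When each of the 15 libraries was left out in turn, the log2FC against naïve stayed between 0.02 and 0.15. Under 8 other settings of the processing it lay between 0.07 and 0.30, and none of them called the gene (FDR of at least 0.159).

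**Figure D2:**
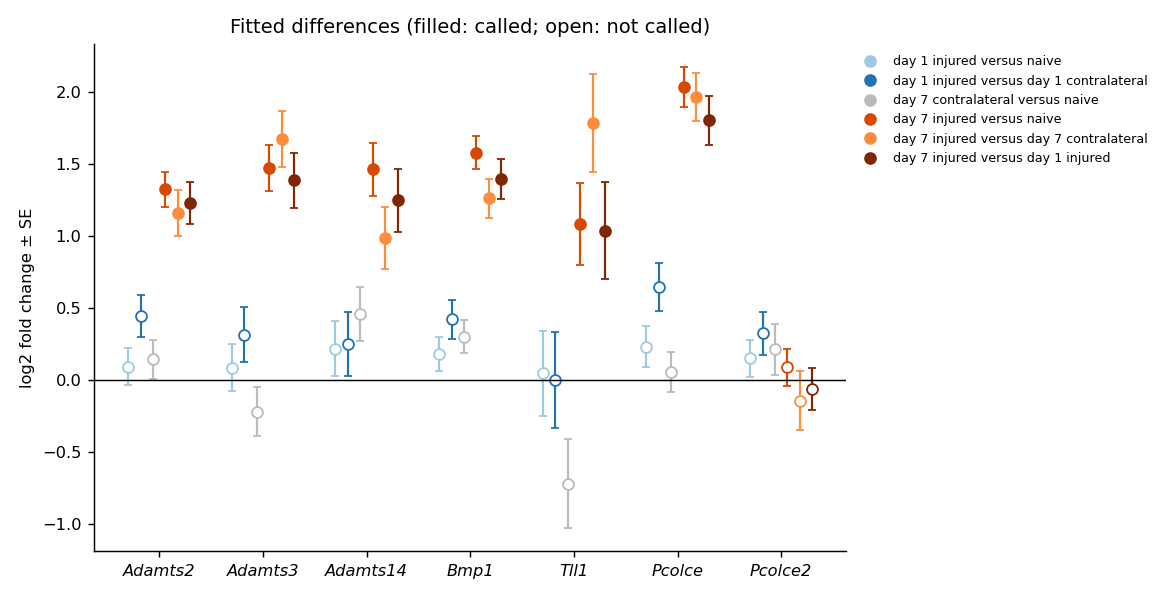
Fitted log2 fold change ± SE of the 7 genes in 6 comparisons (edgeR, adjusted over all genes tested); filled circles passed the FDR limit of 0.05 and the 1.5-fold limit, open circles did not. The 3 comparisons of the day 7 injured knees lie between 0.99 and 2.04 for 6 genes and between −0.14 and 0.09 for Pcolce2.

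The libraries of the day 7 injured and naïve groups did not overlap in CPM for 6 of the 7 genes, where 28.2% of all tested genes did not overlap in either direction. For the same 6 genes the day 7 injured libraries lay above all 15 others, and 15.1% of genes were apart from them in either direction. As a description of the balance between the enhancers, the TPM of Pcolce was 3.03 to 5.32 times that of Pcolce2 in naïve libraries, 3.17 to 4.33 times in day 1 contralateral and 3.95 to 4.91 times in day 1 injured knees. In the day 7 injured libraries the ratio was 15.8, 11.4 and 15. The contralateral libraries of day 7 had ratios of 2.09, 4.82 and 5.47, of which the lowest was that of replicate 1. The ratio in the injured knees of day 7 was thus above those of all other libraries, whereas the ratios of Bmp1 to Tll1 and of Adamts2 to Adamts3 in these knees, 38.4 to 52.3 and 6.57 to 8.55, overlapped the naïve ranges of 20.4 to 46.4 and 5.17 to 10.2.

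**Figure D3:**
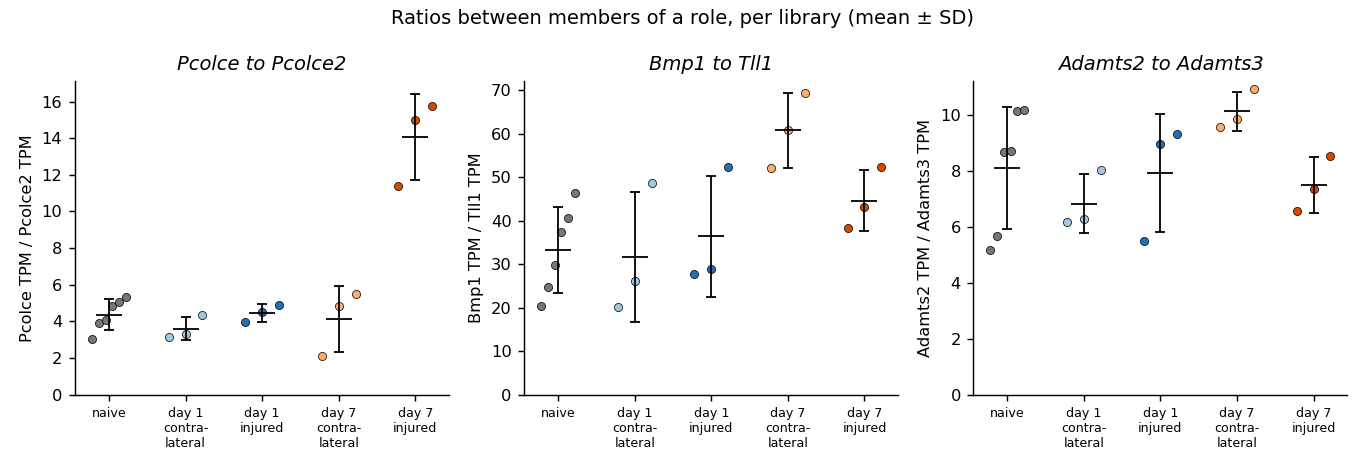
Ratio of the TPM of 2 members of the same role in each library (linear axes from 0); points are libraries and bars the mean ± SD. The ratio of Pcolce to Pcolce2 is 14.1 ± 2.35 in day 7 injured knees (n = 3) and 4.38 ± 0.862 in naïve knees (n = 6), and the other ratios of these groups overlap.

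At day 1 no member was called, either between injured and naïve knees or between injured and contralateral knees, and in both comparisons edgeR called 0% of all genes higher and 0% lower. Against naïve knees, no member reached an unadjusted p of 0.05 (959 of 21129 genes did), and the log2FC of the 7 genes ranged from 0.05 for Tll1 to 0.23 for Pcolce. In TPM the day 1 injured knees were higher, with Pcolce at 52.8 ± 12.3 TPM (n = 3) against 30.5 ± 5.42 TPM in naïve knees (n = 6) and Adamts2 at 13.6 ± 4.66 against 8.29 ± 1.00 TPM, but the median of all tested genes moved by 0.55 (log2) on that scale and by 0.001 in CPM. Against the contralateral knees, 4 members had an unadjusted p below 0.05, as had 1383 of all genes: Pcolce (log2FC 0.65, SE 0.166, FDR 0.755), Adamts2 (0.44), Bmp1 (0.42) and Pcolce2 (0.33). Their day 1 injured libraries lay above the contralateral ones without overlap, where 11.2% of all genes did not overlap in either direction. DESeq2 and limma-voom called none of the 7 genes either, although DESeq2 called 15 genes of the whole table between injured and naïve knees. The day 1 contralateral libraries in turn lay low, with a log2FC against naïve of −0.41 for Pcolce and −0.35 for Adamts2, neither past the threshold, in a comparison in which edgeR called 0% of genes higher and 0% lower, 554 genes had an unadjusted p below 0.05 and DESeq2 called 2 and limma-voom none.

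Contralateral knees of day 7 were compared with naïve knees as well. None of the 7 genes was called, although Adamts14 and Bmp1 lay above the naïve range in all 3 libraries (4.33% of genes did not overlap in either direction). The edgeR test called 0% of 21262 genes higher and 0% lower, whereas 3220 genes had an unadjusted p below 0.05. DESeq2 called 31 genes, none of them a member, and limma-voom none. Of the members, 3 were below an unadjusted p of 0.05, namely Adamts14, Bmp1 and Tll1, and the sign was positive for the first 2 (log2FC 0.46 and 0.30) and negative for Tll1 (−0.72, SE 0.308, FDR 0.292). Without contralateral replicate 1 these values were 0.35, 0.27 and −0.68, and that of Pcolce2 went from 0.21 to −0.13.

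The injury effect, taken as injured minus contralateral, was larger at day 7 than at day 1 for Adamts3, Bmp1, Tll1 and Pcolce by the test of the difference itself, which called 4.01% of 21262 genes (FDR limit 0.05, no fold limit). The difference between both effects (log2) was 1.36 for Adamts3 (SE 0.273, FDR 0.00784), 1.32 for Pcolce (SE 0.229, FDR 0.00248), 0.84 for Bmp1 (SE 0.189, FDR 0.0169) and 1.79 for Tll1 (SE 0.470, FDR 0.0407). Adamts2 (0.71, SE 0.224, FDR 0.0896) and Adamts14 (0.73, SE 0.306, FDR 0.229) did not pass, and Pcolce2 had a difference of −0.47 (SE 0.287, FDR 0.449). The calls of Adamts3 and Pcolce held in all 18 fits that left out 1 library. That of Bmp1 was lost in 4 of these, with an FDR of up to 0.0773, and that of Tll1 in 13, with an FDR of up to 0.154, among them the fit without day 7 contralateral replicate 1 (FDR 0.0591). Without the latter, Adamts2 passed (0.88, FDR 0.0265), the difference was 1.48 for Adamts3, 0.86 for Adamts14, 0.89 for Bmp1, 1.77 for Tll1 and 1.29 for Pcolce, and that of Pcolce2 went from −0.47 to −0.11 (FDR 0.847).

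Next, the transcripts of each gene were examined. Most estimated counts of each gene came from 1 annotated coding form: on average over the 18 libraries, Adamts2-201 (1213 residues) held 92.8% of its gene, Adamts14-201 (1206 residues) 96.2%, Tll1-201 (1013 residues) 94.7%, Pcolce2-201 (414 residues) 90.8% and Pcolce-201 (468 residues) 88.0%. Bmp1-201, which encodes 991 residues, held 70.7% of Bmp1, and Bmp1-205, annotated as a target of nonsense-mediated decay, a further 22.1%. Adamts3 was split between Adamts3-201 (66.4%), Adamts3-202 (14.1%), whose coding sequence is longer by a single residue, and the shorter Adamts3-204 (18.7%, 228 residues). Usage was tested between day 7 injured and naïve knees with limma on the log2 ratio of each transcript to the rest of its gene, which called 3.01% of 55261 transcripts, and 4 of the 20 transcripts of the members tested. Tll1 had no transcript among the 20, so its usage was not tested. All 4 called transcripts had a smaller share of their gene in the injured knees. The test planned first, edgeR's diffSpliceDGE, called only Pcolce-204 of them (FDR 0.0476), and not Pcolce-205 (FDR 0.118), Bmp1-204 (FDR 0.5) or Pcolce-208 (FDR 0.928).

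Of these, 3 were annotated as retaining an intron. Pcolce-205 took 0.47% to 1.02% of the Pcolce counts in naïve libraries and 0.0729%, 0.0975% and 0.0667% in day 7 injured libraries (log2 ratio change −3.21, SE 0.347, FDR 0.000944). Pcolce-204 took 1.24% to 4.68% in naïve and 0.52%, 0.501% and 0.242% in day 7 injured libraries (−2.62, SE 0.418, FDR 0.00943). Bmp1-204 took 1.08% to 1.84% in naïve and 0.353%, 0.49% and 0.311% in day 7 injured libraries (−1.91, SE 0.329, FDR 0.0132). Day 7 contralateral replicate 1 was also low for Pcolce-205, at 0.123%. The level of the transcripts themselves, in CPM, differed less than their share: Pcolce-204 was at 2.08 ± 0.799 CPM in naïve (n = 6) and 1.37 ± 0.423 CPM in injured knees (n = 3), and Bmp1-204 at 1.11 ± 0.256 and 0.863 ± 0.188 CPM, whereas Pcolce-205 was at 0.638 ± 0.194 CPM (0.321 to 0.862 CPM) in naïve and 0.258 ± 0.0507 CPM (0.227 to 0.317 CPM) in injured knees, a range that the contralateral libraries of day 1 (0.258 to 0.514 CPM) and day 7 (0.0779 to 0.713 CPM) overlapped. The coding form Pcolce-201 was at 71.4 ± 13.2 and 311 ± 28.3 CPM. Pcolce-208, a short coding form, was also called (−1.18, FDR 0.036) but lost its call in 13 of the 15 fits without 1 library. The share of Pcolce-201 itself was 86.7 ± 4.08% in naïve and 93.5 ± 1.09% in day 7 injured libraries and did not pass the test (log2 ratio change 1.09, FDR 0.0591). These are estimates from reads that several transcripts share. At 0.227 to 0.317 CPM in the injured knees, the call of Pcolce-205 rests on few reads per library. The test on ratios did not weight libraries by their counts.

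**Figure D4:**
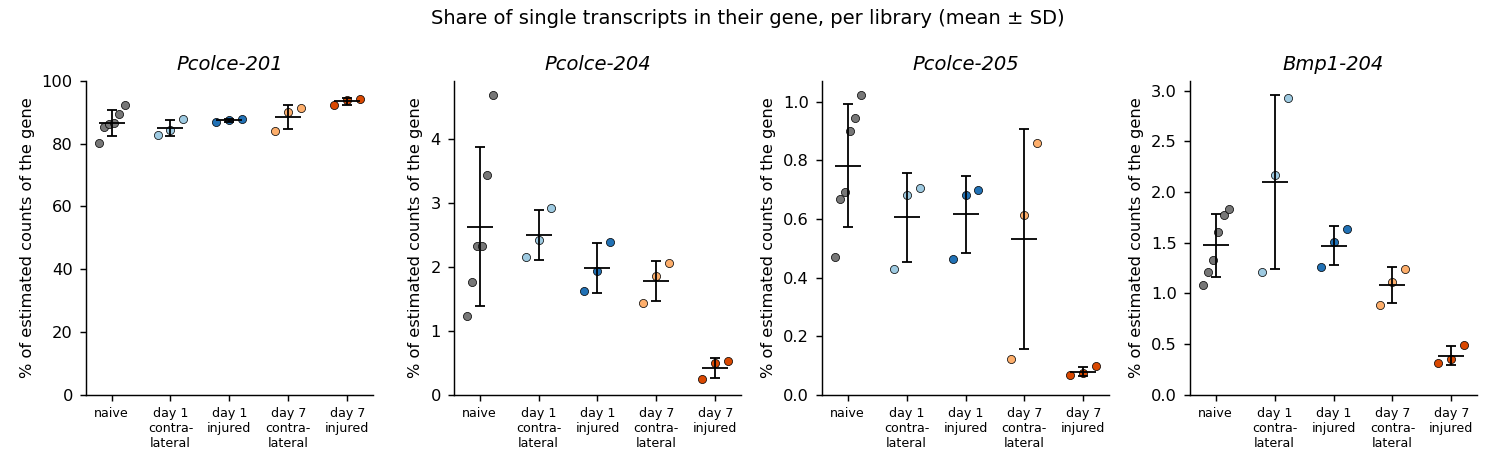
Percent of the estimated counts of the gene that were assigned to 1 transcript, in each library of the 5 groups (linear axes from 0; points are libraries, bars the mean ± SD). Pcolce-204, Pcolce-205 and Bmp1-204 are lowest in the day 7 injured libraries, at 0.421%, 0.079% and 0.385% on average, and Pcolce-201 is at 93.5%.

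The substrates of these enzymes were then counted. Of 11 fibrillar procollagen genes, 8 were higher and none lower in day 7 injured than in naïve knees, with a median log2FC of 1.91, where the median of all genes was −0.04 and 10.4% of genes were called higher. Col1a1 and Col1a2, the chains of type I, were at 12425 ± 3807 and 7450 ± 2050 CPM in naïve (n = 6) and 50924 ± 3862 and 27641 ± 1623 CPM in day 7 injured knees (n = 3; log2FC 2.05 and 1.91, FDR 1.72e-05 and 1.57e-05). Col3a1 differed most of the abundant chains, from 1825 ± 615 to 22659 ± 1426 CPM (log2FC 3.65, SE 0.266, FDR 1.26e-07). Col2a1, the chain of cartilage type II, was at 3240 ± 886 and 3800 ± 276 CPM and was not called (log2FC 0.25, SE 0.196, FDR 0.358). Against the contralateral knees of day 7, 5 of the 11 were called higher and none lower, where 9.33% of all genes were called higher. Col1a1 and Col1a2 were not among these 5 (log2FC 0.77 and 0.75, FDR 0.188 and 0.152). Their contralateral values were spread, that of Col1a1 from 15476 to 52441 CPM, and the highest was that of replicate 1. Without this library 7 of the 11 were called higher, Col1a1 (log2FC 1.48, FDR 0.00609) and Col1a2 (1.33, FDR 0.00708) among them, and Col2a1 went from −0.52 to 0.40, not called in either fit.

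Of 14 other substrates of tolloid proteinases, 13 were tested, 11 were higher in day 7 injured than in naïve knees and none was lower (median log2FC 1.46), where 10.4% of all genes were called higher and 6.11% lower. Dspp did not pass the filter. Bgn, which encodes biglycan, was at 542 ± 67.7 CPM in naïve and 2635 ± 729 CPM in injured knees (log2FC 2.30, FDR 6.84e-08). Lox, the lysyl oxidase whose precursor is cut by tolloid proteinases, was at 132 ± 61.4 and 628 ± 119.6 CPM (log2FC 2.27, SE 0.383, FDR 0.000393). Hspg2, which encodes perlecan, had a log2FC of 1.41 (FDR 6.84e-06) and Ltbp1, a binding protein of latent TGF-beta, of 1.33 (FDR 5.11e-07). Against the contralateral knees 10 of the 13 were higher and none lower (9.33% and 3.23% of all genes). When contralateral replicate 1 was left out, the same 10 were called higher, and Dmp1, which encodes a matrix protein of mineralizing tissue, was called lower (log2FC −0.90, FDR 0.02).

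Of 15 activators, partners and other proteinases, 12 were tested, and 7 were higher and none lower at day 7 against naïve knees, with a median log2FC of 0.72 (10.4% and 6.11% of all genes). Tll2, Mep1a and Mep1b did not pass the filter. Fn1, the fibronectin gene, had a log2FC of 1.63 (SE 0.222, FDR 5.33e-05), Postn, which encodes periostin, of 4.29 (SE 0.433, FDR 2.98e-06) and Thbs1, a thrombospondin, of 0.85 (FDR 0.000279). Timp3, a metalloproteinase inhibitor, was at 258 ± 48.6 CPM in naïve and 239 ± 34.2 CPM in day 7 injured libraries (log2FC −0.09, FDR 0.674). Against the contralateral knees 6 of the 12 were higher and none lower (9.33% and 3.23% of all genes), and 5 were higher when contralateral replicate 1 was left out. None of the genes of the 3 lists was called at day 1.

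**Figure D5:**
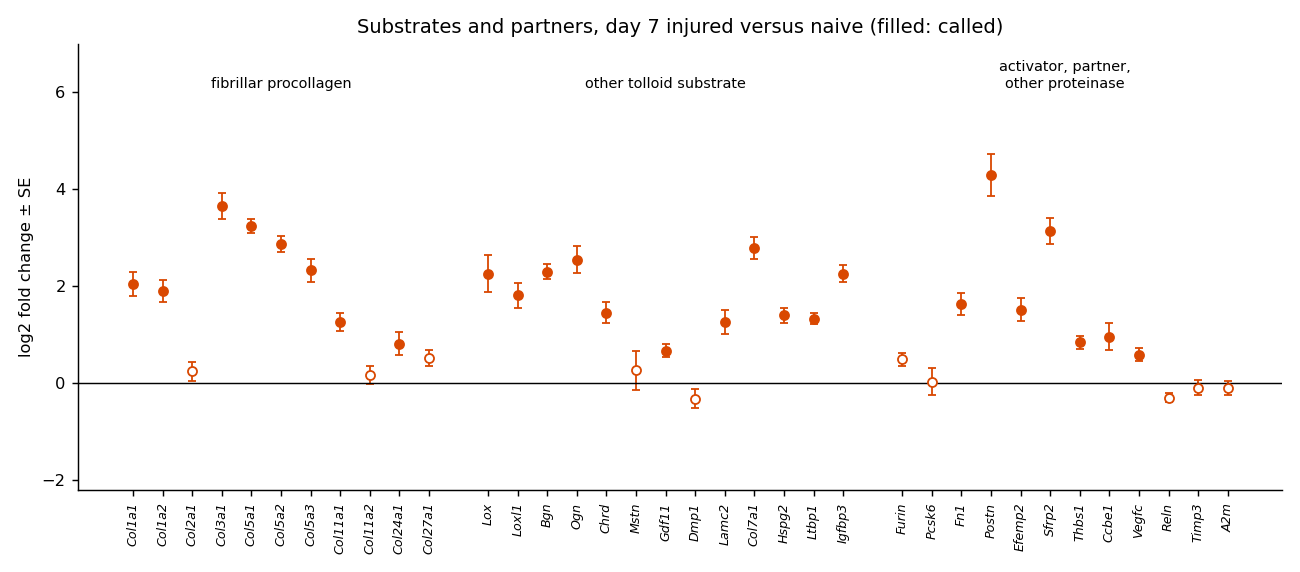
Log2 fold change ± SE between day 7 injured and naïve knees for the tested genes of the 3 lists; filled circles were called, open circles were not. Postn (4.29), Col3a1 (3.65) and Col2a1 (0.25) are among the genes named in the text.

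Markers of other cell types differed between the same groups, in a comparison in which 10.4% of all genes were called higher and 6.11% lower. Of the 11 markers of fibroblasts of synovium, tendon or capsule, 8 were higher in day 7 injured than in naïve knees and none lower; these include Col1a1 and Col3a1, which are also in the procollagen list, and Tnmd (log2FC 3.68), Scx (2.94) and Thy1 (1.91). Col1a1 was the most abundant. Of 5 endothelial markers 3 were higher, and their sum, led by Pecam1, was 254 ± 18.8 CPM in naïve and 394 ± 45.1 CPM in day 7 injured libraries. Of 11 chondrocyte markers Acan, Sox9 and Comp were higher. Of 9 osteoblast and osteocyte markers, led by Ibsp, Ibsp was higher and Sost lower, with sums of 795 ± 132 and 885 ± 49.2 CPM. Of 6 erythroid markers 3 were lower, and their sum, led by Hbb-bs, was 22359 ± 5449 CPM in day 7 injured libraries. Neutrophil genes, led by Ngp, had 2 of 7 lower and a sum of 8615 ± 1491 CPM. Neither the 6 skeletal muscle genes, led by Myh4 (3120 ± 1035 CPM), nor the 6 macrophage genes, led by Csf1r (740 ± 46.3 CPM against 591 ± 65.8 CPM in naïve libraries), held a called gene. The part of these cell types in the results for the 7 genes was not tested.

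The genes whose pattern over the 18 libraries was most like that of each member were found by the root mean square difference in centred log2 CPM. They were Rassf8, Boc and Plpp1 for Adamts2 (0.13 to 0.14), B3gnt9, Plod1 and Hspg2 for Adamts3 (0.17 to 0.19), and Vash1, Cgref1 and Dlg5 for Adamts14 (0.18 to 0.22). For Bmp1 they were Tmem119, Crtap and Vash1 (0.11 to 0.13), and for Tll1 Adamtsl3, Atp8b1 and Arpin (0.25 to 0.28). For Pcolce they were Clec11a, C1qtnf1 and Adamts12 (0.17 to 0.18), and for Pcolce2 Gprasp1 and Glul (both 0.15). The spread of the members' own log2 CPM on this scale ranged from 0.26 for Pcolce2 to 0.81 for Pcolce.

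The genes lie apart on the mouse genome (GRCm38): Adamts2 on chromosome 11, Adamts3 and Pcolce on chromosome 5, Adamts14 on chromosome 10, Bmp1 on chromosome 14, Tll1 on chromosome 8 and Pcolce2 on chromosome 9. Pcolce spans chr5:137605103-137613784 and Pcolce2 chr9:95637601-95698096. Some overlap other genes. Fbxo24 overlaps Pcolce on the same strand at a mean of 0.182 TPM, and Gm36266 overlaps it on the opposite strand at 0.771 TPM, both well below Pcolce. Gm12198, Gm12199 and Gm12200 lie opposite Adamts2, and Gm16126, Gm16127 and Itpa-ps2 opposite Pcolce2, all below 0.43 TPM. The kit marks strand, but the strand setting of the counting is not given in the sources used here.

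The promoters of 6 of the 7 genes were found in the RefSeq table (GRCm38.p6), and 4 are shown because they allow the paralogues Pcolce and Pcolce2 to be set side by side, together with Adamts2 and Adamts14, whose windows hold the most GC boxes. Each run ends at the base before the first exon of the gene that GENCODE places in the window, which for Pcolce lies inside the longer GENCODE gene, and is written 5′ to 3′ on the strand of the gene, with GC boxes (GGGCGG or its reverse complement) in capitals. They are Adamts2 at chr11:50601835-50602083 (plus strand), Adamts14 at chr10:61273439-61273669 (minus), Pcolce at chr5:137611488-137611654 (minus) and Pcolce2 at chr9:95637378-95637600 (plus):
Adamts2: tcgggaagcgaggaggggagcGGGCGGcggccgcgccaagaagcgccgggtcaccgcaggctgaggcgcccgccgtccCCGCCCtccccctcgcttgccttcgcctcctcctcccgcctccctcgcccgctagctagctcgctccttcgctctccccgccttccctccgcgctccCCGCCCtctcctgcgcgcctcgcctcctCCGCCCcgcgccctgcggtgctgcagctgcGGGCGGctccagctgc
Adamts14: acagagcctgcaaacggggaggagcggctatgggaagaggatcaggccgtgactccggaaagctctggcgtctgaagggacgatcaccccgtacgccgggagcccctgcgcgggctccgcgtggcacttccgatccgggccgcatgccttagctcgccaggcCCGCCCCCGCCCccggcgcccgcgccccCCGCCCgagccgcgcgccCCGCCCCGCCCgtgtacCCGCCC
Pcolce: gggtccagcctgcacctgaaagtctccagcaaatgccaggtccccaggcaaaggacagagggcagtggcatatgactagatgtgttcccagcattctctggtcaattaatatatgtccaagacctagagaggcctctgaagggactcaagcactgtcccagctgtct
Pcolce2: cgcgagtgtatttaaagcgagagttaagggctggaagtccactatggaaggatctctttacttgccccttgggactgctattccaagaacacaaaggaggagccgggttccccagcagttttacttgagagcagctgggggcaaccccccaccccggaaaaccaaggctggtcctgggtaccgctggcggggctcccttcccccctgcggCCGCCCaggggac
The whole windows of 250 bases before the RefSeq start were searched on both strands for 5 short motifs. A GC box was present in 5 of the 6 windows, against 32.7% of 32851 promoters. Adamts14 had 6 of them, with a pair that overlapped by 1 base, and Adamts2 had 5, whereas Adamts3, Pcolce and Pcolce2 had 1 each, that of Pcolce lying in the bases not printed. The window of Tll1 had no GC box but held a CCAAT box, which is found in 33.9% of promoters. It also held a TEAD motif, searched as GGAATG and found in 12.6% of promoters. No TATA box was found in the 6 windows, where the letters TATAAA occur in 12.4% of promoters. Nor was an AP-1 motif, searched as TGANTCA and present in 6.75% of promoters. Pcolce and Pcolce2 thus each held a single GC box and none of the 4 other motifs. The matches describe the sequence only.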

How the data were processed

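Cartilage RNA of 18 libraries (6 naïve, 3 in each of the 4 other groups) was prepared by the authors as stranded, ribosome-depleted total RNA. Reads were trimmed and pseudo-aligned with Kallisto to the GRCm38 transcriptome by the authors. They removed 1 ACL library, not named, from their own analysis for low mapping. The numbers of mice and the pool sizes that the study gives account for 18 libraries. By that scheme the removed library would be among the 18 tested here. The labels also name GRCh38, but all identifiers are of mouse. The deposited tables hold, per transcript, estimated counts without further normalization, TPM and an effective length (another quantity, used only for the length offset), as made by the authors. Of 137436 transcripts, 135107 (98.3%) were matched to GENCODE genes. The others held 0.667% to 3.90% of a library's counts and were left out.

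Estimated counts were summed over the transcripts of a gene, rounded and tested with edgeR 4.0.16 (R 4.3.3): TMM, filterByExpr, a mean per group, no covariates and the quasi-likelihood test, with Benjamini-Hochberg adjustment over all genes and an FDR of at most 0.05 with a 1.5-fold limit (no fold limit for the difference of effects). Comparisons without the day 7 contralateral group used the 15 other libraries (21129 genes), the rest all 18 (21262 genes). That group was kept out of fits that did not need it, because the study had removed 1 unnamed ACL library. Transcript usage was tested with limma 3.58.1 on log2 ratios after adding 0.5 counts. This replaced edgeR's diffSpliceDGE, which called mostly unchanged transcripts when tested on simulated data. DESeq2 1.42.0 and limma-voom served as alternatives, and Python 3.11.15 for summaries. The labels give no replicate numbers or mice, so numbers here follow the order of deposition and pair nothing, and the correlation that the study fitted for samples of the same mouse pool (duplicateCorrelation, with limma-voom) could not be repeated.

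The members, the lists (3 of pathway genes, 8 of cell type markers) and the tests were chosen with earlier results of these data known. Named are all members, the 4 most abundant genes of each pathway list (any called against most of its list would be added; there was none), the markers given in the text, and for each member the 3 genes closest in centred log2 CPM (1 gene is not reported here). Markers with single values (Tnmd, Scx, Thy1) and genes overlapping the members were named after their values were seen. Fold changes of low genes rest on few reads, and counts carry counting error beside the spread between libraries.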

Additional observations from a re-analysis of the deposited data

Results flagged for a closer look

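For 4 genes the injury effect (injured minus contralateral) differed between day 7 and day 1 in edgeR's test of the difference: Adamts3 (1.36 on the log2 scale), Bmp1 (0.84), Tll1 (1.79) and Pcolce (1.32). Tll1 rested on 21 to 204 counts per library and on low contralateral values at day 7 of 1.59 to 2.14 CPM, and its call was lost under limma-voom and with the length offset. No naïve library stood apart for any of the 7 genes by Dixon's test, which chance would flag in about 1 of 20 groups, and the groups of 3 were not tested in this way.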

How the results depend on the processing

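For day 7 injured against naïve and against contralateral knees, the 6 calls and the absent call of Pcolce2 were the same under DESeq2 size factors, DESeq2, limma-voom, no filter on low counts, a length offset, an FDR of at most 0.01, no fold limit, and each left-out library, and against naïve knees also with all 18 libraries fitted. For the difference between the injury effects, 4 members were called in the main test, 3 under limma-voom and with the length offset, and 2 at an FDR of at most 0.01. Leaving out 1 library gave 2 to 4, with 2 after leaving out day 1 injured replicate 1, day 1 contralateral replicate 3, day 7 contralateral replicate 2 or day 7 injured replicate 3. The cause was not tested. Adamts2 passed in this contrast without day 1 injured replicate 3 or day 7 contralateral replicate 1. For transcript usage, diffSpliceDGE called 1 of the 4 transcripts, Pcolce-204, and leaving out 1 library gave 3 to 5. Counts of the 3 pathway lists, an alternative chosen after seeing the data, stayed within 1.5 times of their main values in the 3 comparisons of the day 7 injured knees under every setting. The order of the 7 genes per length was the same on counts per kilobase in 4 of the 5 groups, with Adamts3 above Adamts14 in the day 7 contralateral group. Shares within a role moved by more than 1 SD in 29 of 35 values when CPM replaced TPM, since CPM does not account for transcript length. No paired analysis was possible because the labels do not say which libraries share mice. The lowest counts are those of Tll1, at 21 to 204 per library, and every group but the naïve one has 3 libraries.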
